A study of Mus musculus with 8 samples.

Results

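Chemokines are small secreted proteins that direct the movement of white blood cells, and chemokine receptors are the G protein-coupled receptors that read them. Their genes were examined in the livers of mice given rilpivirine, an oral inhibitor of the reverse transcriptase of HIV, and in control livers. Members were the genes whose probe sets carry 1 platform symbol that starts with Ccl, Cxcl, Ccr or Cxcr, followed by a number and at most a letter from a to d. This gave 47 of 22180 genes measured, 32 ligands and 15 receptors. Another 33 probe sets list such a symbol together with other genes and were not used, among them all 22 probe sets that list Ccl19 or a Ccl21 gene, which encode the ligands of CCR7. Only Ccl27a had more than 1 usable probe set.

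The study set 4 liver samples of the rilpivirine group beside 4 of a control group, each on an array of its own. All 8 samples came from wild-type C57BL/6 animals and are described as non-alcoholic fatty liver disease. The rilpivirine group received the drug by mouth every day at an amount meant to match that taken by patients, and no agent is named for the control group. Feeding lasted 3 months, and the labels mention both a normal diet and a diet with 60% fat without tying a diet to a sample. The labels state neither age nor sex. They also do not say whether the 4 samples of a group are 4 animals, and p-values here rest on the spread among them, of which part or all may be technical. Hepatocyte transcripts were bright on every array, with albumin (Alb) at 13.26 to 13.37 log2 with rilpivirine and 13.22 to 13.27 log2 in controls. Rilpivirine replicate 2 stood apart from the rest, with a mean correlation of 0.965 to the other arrays, against 0.976 to 0.981 for the other 7 arrays.

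CC and CXC chemokines differ in the spacing of their first cysteines, and the receptors are named after the class that they bind. In liver, hepatocytes, Kupffer cells, sinusoidal endothelium and stellate cells make chemokines when they meet interleukin 1, tumour necrosis factor or interferon gamma. The main routes are CCL2 to CCR2 for monocytes, CXCL1 and CXCL2 to CXCR2 for neutrophils, CXCL9 to CXCL11 and CXCR3 for activated T and NK cells, CXCL16 to CXCR6 for NKT cells, and CXCL12 to CXCR4 for many blood cells. Most receptors sit on leukocytes, which are a small part of liver tissue. In bulk tissue, fewer cells of a type and less RNA per cell cannot be told apart.

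The question of which chemokine genes gave a signal in these fatty livers was answered against genes that liver is not known to use. Values are log2 expression as deposited, and the submitters' notes name RMA, which brings arrays to a common scale. A total of 1408 genes of the olfactory, vomeronasal and trace amine receptor families had a median level of 1.85 log2 and a 95th percentile of 3.38 log2. Of the 47 members, 29 had a mean over all 8 arrays above that percentile, as had 13373 of all 22180 genes. Ligands and receptors differed in this respect: 24 of 32 ligands were above it, but 5 of 15 receptors. The 5 receptors were Cxcr2, Cxcr3, Cxcr4, Cxcr5 and Ccr7. The 8 ligands at or under the silent-gene level were Ccl1, Ccl8, Ccl12, Ccl26, Cxcl3, Cxcl5, Cxcl15 and Cxcl17. Ccl27a lay just above it, at a mean of 3.39 log2, and Cxcr1 just under it, at 3.11 log2. A level under the bound does not show that a gene was silent, and probes differ in affinity, so the order of levels between genes carries no meaning.

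**Figure D1:**
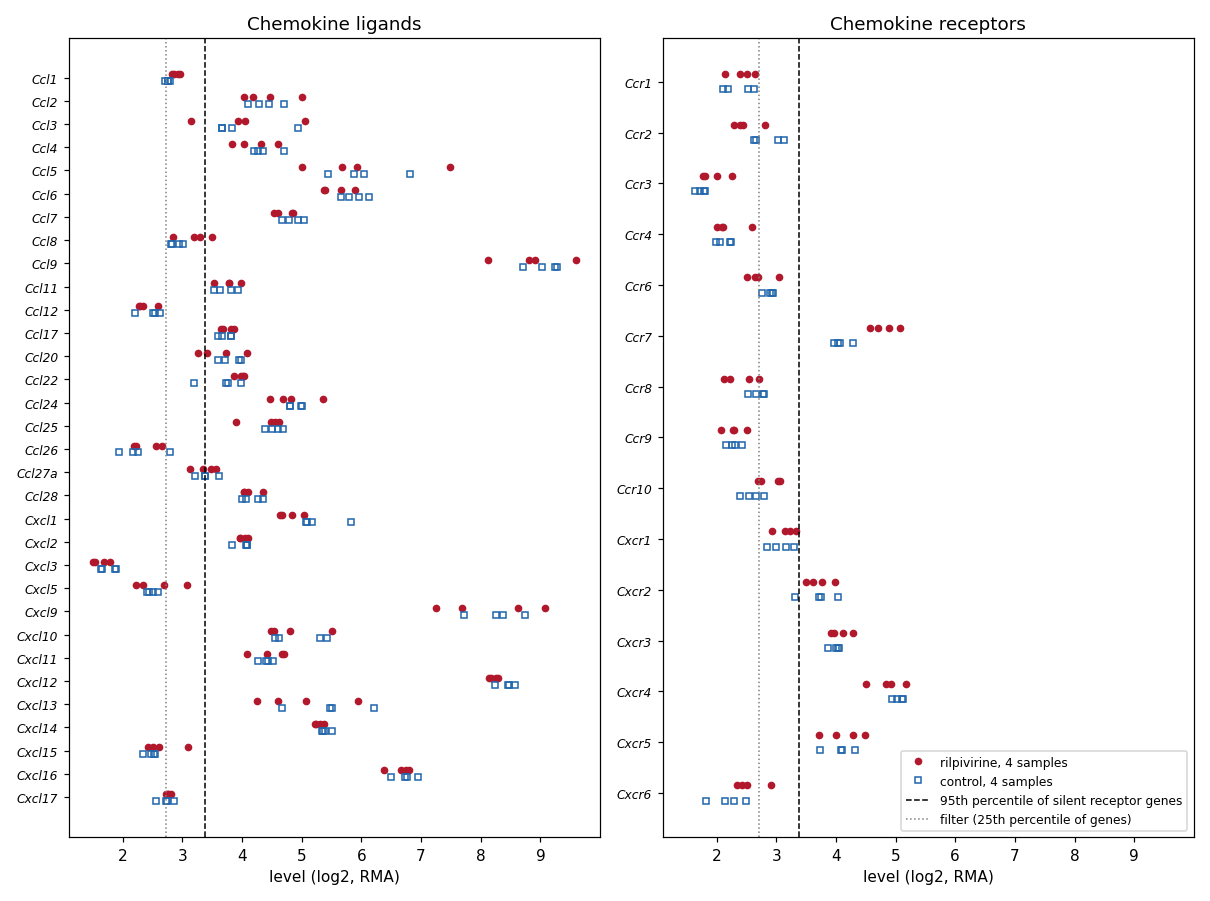
Level of each chemokine ligand (left) and receptor (right) in every sample, on the log2 scale of the deposited values. Filled circles are the 4 rilpivirine samples and open squares the 4 control samples of a gene; the dashed line is the 95th percentile of the silent receptor genes at 3.38 log2, and the dotted line is the filter at 2.72 log2. Most ligands lie right of the dashed line, most receptors left of it, and the groups of nearly every gene overlap.

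Several ligands with known sources in liver gave levels well above the silent genes. Cxcl12, the homeostatic ligand of CXCR4 made by stromal and endothelial cells, measured 8.13 to 8.29 log2 with rilpivirine and 8.24 to 8.57 log2 in controls. Cxcl9, an interferon gamma target, measured 7.25 to 9.08 log2 with rilpivirine and 7.72 to 8.74 log2 in controls. Ccl9, a mouse chemokine of macrophages that binds CCR1, measured 8.12 to 9.59 log2 with rilpivirine and 8.72 to 9.28 log2 in controls. For Cxcl16, a membrane-bound chemokine and scavenger receptor, the levels were 6.37 to 6.80 log2 with rilpivirine and 6.49 to 6.94 log2 in controls. In each of these 4 genes the ranges of the groups overlapped.

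Of the 47 members, 35 passed a filter on low values, a mean over all 8 arrays of at least 2.72 log2, the 25th percentile of all genes, and entered the test. No member passed it after Benjamini-Hochberg adjustment over all 16635 genes tested with limma, where 0% of all genes passed. At an unadjusted p under 0.05, limma gave 2 of the 35 members, beside 5.21% of all genes tested, a share near that background. They were Ccr7, higher with rilpivirine beside 2% of all genes, and Cxcl1, lower beside 3.21%. The groups did not overlap in 3 members, beside 3.04% of all genes tested. Ccr7 and Ccl1 were higher, beside 1.3% of all genes, and Cxcl1 was lower, beside 1.73%. The median difference between rilpivirine and control was -0.07 log2 over the 27 tested ligands and 0.07 log2 over the 8 tested receptors, against -0.03 log2 over all genes tested. Of the ligands, 10 higher and 17 lower in mean were counted with rilpivirine, and of the receptors 6 higher and 2 lower, beside 43.1% of all genes above 0 and 56.9% below. Without rilpivirine replicate 2 the receptor median was -0.03 log2.

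**Figure D2:**
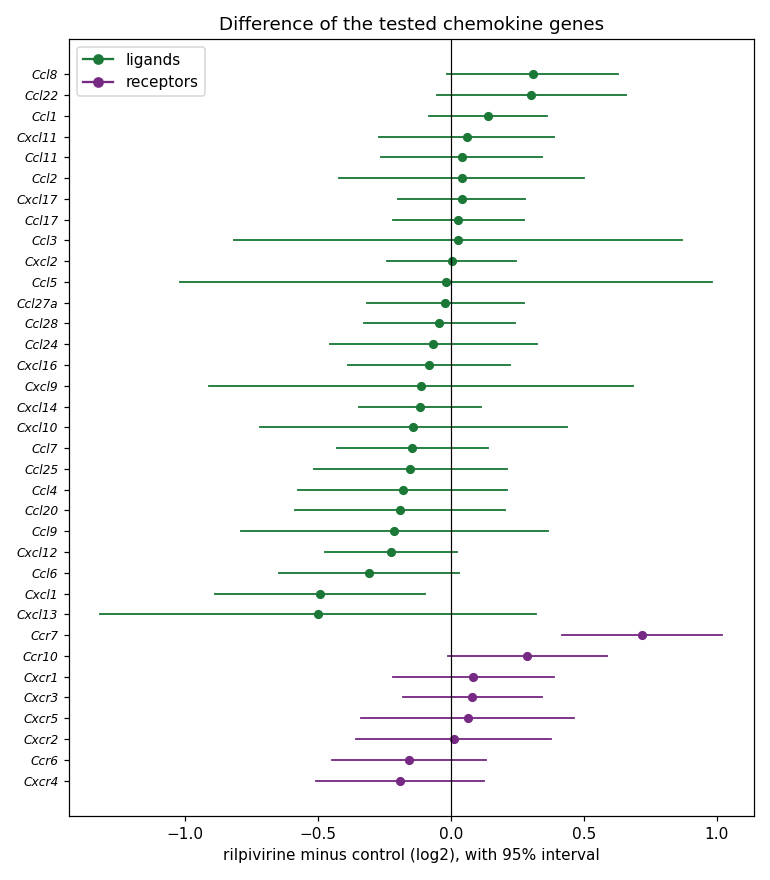
Difference between rilpivirine and control (log2) for the 35 tested chemokine genes, with its 95% confidence interval from the limma fit; ligands are drawn above receptors. The interval spans 0 in 33 of them; Ccr7 lies wholly right of 0 and Cxcl1 wholly left.

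The intervals also bound what these arrays could show. Their half-width ranged from 0.22 to 1.0 log2, with a median of 0.32 log2. For Cxcl2, which attracts neutrophils, the difference was 0.00 log2 with an interval of -0.24 to 0.25. Ccl5, a chemokine of T and NK cells, had a difference of -0.02 log2 but an interval of -1.02 to 0.98. The Ccl5 interval holds differences that the Cxcl2 interval does not.

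Ccr7 was the member with the smallest p-value. It encodes the receptor that guides mature dendritic cells and naive T cells towards lymph vessels and lymph nodes. Levels were 4.58, 5.08, 4.71 and 4.90 log2 in rilpivirine replicates 1 to 4, against 4.04, 3.98, 4.08 and 4.29 log2 in control replicates 1 to 4. All 4 rilpivirine samples lay above all 4 controls. The means were 4.82 ± 0.22 log2 with rilpivirine and 4.10 ± 0.14 log2 in controls (SD, n = 4 each), a 1.65-fold higher level, with a difference of 0.72 log2 and an interval of 0.42 to 1.02. Its unadjusted p in limma was 0.000285, rank 7 among 16635 genes, and its adjusted p was 0.595. Leaving out each sample in turn gave differences of 0.63 to 0.80 log2. Rilpivirine replicate 2, the array that stood apart, had the highest value, and the difference without it was 0.63 log2.

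Markers of dendritic cells and T cells, which carry CCR7, had overlapping groups as lists. The mean level of 7 dendritic cell markers was 4.59 to 4.63 log2 with rilpivirine and 4.53 to 4.78 log2 in controls, with Xcr1 and Flt3 not above the silent-gene level. That of 7 T cell markers was 3.43 to 3.89 log2 with rilpivirine and 3.57 to 3.79 log2 in controls, with Cd4 and Cd8a not above it. Of these markers, 3 higher and 4 lower were counted for dendritic cells and 3 higher and 4 lower for T cells. Over all genes tested, 43.1% were above 0 and 56.9% below. None of these markers had an unadjusted p under 0.05 in limma, beside 5.21% of all genes. Ccl22, a ligand of CCR4 that mature dendritic cells secrete, measured 3.87 to 4.03 log2 with rilpivirine and 3.19 to 3.98 log2 in controls. Its lowest sample was control replicate 4. The Ccl22 difference was 0.30 ± 0.16 (SE), with an unadjusted p of 0.0868 and an adjusted p of 0.890 in limma. Ccl17, another ligand of CCR4, had a difference of 0.03 ± 0.11 (SE). B cell markers are given below with Cxcr5. The part of any of these cells in the Ccr7 difference was not tested.

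Cxcl1 was the other member with an unadjusted p under 0.05, in the opposite direction. CXCL1 is a neutrophil attractant that many liver cells make under interleukin 1 or tumour necrosis factor. Levels were 5.03, 4.64, 4.67 and 4.84 log2 in rilpivirine replicates 1 to 4, against 5.17, 5.07, 5.83 and 5.09 log2 in control replicates 1 to 4. All rilpivirine samples were lower than all controls, but rilpivirine replicate 1 and control replicate 2 were only narrowly apart, and control replicate 3 was the highest of all. The means were 4.80 ± 0.18 log2 with rilpivirine and 5.29 ± 0.36 log2 in controls (SD, n = 4 each), a difference of -0.49 log2 with an interval of -0.89 to -0.10, an unadjusted p of 0.0191 and an adjusted p of 0.885 in limma. Without control replicate 3 the difference was -0.31 log2.

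Cxcl2, which lies beside Cxcl1 in the genome and acts on the same receptor, is the natural neighbour for comparison. It measured 3.97, 4.10, 3.97 and 4.05 log2 in the rilpivirine samples, against 3.83, 4.07, 4.09 and 4.08 log2 in the controls. Its groups overlapped, and control replicate 1 was low. The promoters of both genes are shown because they hold the same NF-kB match and only Cxcl1 had groups without overlap, and that of Cxcl10 because it holds an interferon motif as well. Each window runs from 250 bases before to 50 bases after the start of the gene, 5′ to 3′ on the gene's strand, from RefSeq (GRCm38.p6), and capitals mark motif matches.
Cxcl1, chr5:90890995-90891294, strand +: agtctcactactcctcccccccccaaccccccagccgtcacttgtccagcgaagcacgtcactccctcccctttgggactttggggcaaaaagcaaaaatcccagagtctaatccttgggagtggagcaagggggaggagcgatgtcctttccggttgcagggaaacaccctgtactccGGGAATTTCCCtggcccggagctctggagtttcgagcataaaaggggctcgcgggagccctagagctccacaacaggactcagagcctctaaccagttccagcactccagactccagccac
Cxcl2, chr5:90903649-90903948, strand +: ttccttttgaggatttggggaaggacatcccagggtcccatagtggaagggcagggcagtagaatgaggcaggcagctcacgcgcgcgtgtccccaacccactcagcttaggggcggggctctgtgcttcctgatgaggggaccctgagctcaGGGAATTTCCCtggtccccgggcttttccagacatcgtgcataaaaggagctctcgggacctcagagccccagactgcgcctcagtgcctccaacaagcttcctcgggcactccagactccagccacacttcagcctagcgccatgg
Cxcl10, chr5:92348840-92349139, strand -: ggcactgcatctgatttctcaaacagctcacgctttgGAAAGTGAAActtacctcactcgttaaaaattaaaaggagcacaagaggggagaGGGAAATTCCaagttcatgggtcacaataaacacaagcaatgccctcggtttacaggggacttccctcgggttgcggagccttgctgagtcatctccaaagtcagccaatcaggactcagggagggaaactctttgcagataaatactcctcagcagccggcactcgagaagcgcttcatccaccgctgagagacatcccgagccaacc

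In the Cxcl1 and Cxcl2 windows the capitals are an identical run, which matches the NF-kB motif on both strands. In Cxcl10, an interferon-stimulated response element (ISRE) comes first and an NF-kB match second. Searched on both strands, the NF-kB motif (GGGA, any 2 bases, TTCC) was present in 6 of 37 windows of the 33 members that have an entry in RefSeq's promoter table, against 1.47% of all 32851 windows. The member genes that hold it were Ccl1, Ccr3, Cxcl1, Cxcl2, Cxcl3 and Cxcl10. The ISRE core (GAAA, any 2 bases, GAAA) was found in 2 member windows, Cxcl10 and Cxcl14, against 3.44% of all windows. The gamma-activated site (TTC, any 3 bases, GAA) was found in 3, Ccl17, Ccr6 and Cxcl14, against 8.3%. No match overlapped a match of another motif. A match is a run of letters and shows no binding.

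Of the receptors of the neutrophil ligands, Cxcr2 was above the silent-gene level and Cxcr1 was not. Cxcr2, the receptor of CXCL1 and CXCL2, measured 3.77, 3.99, 3.49 and 3.62 log2 in the rilpivirine samples, against 3.73, 3.32, 3.74 and 4.04 log2 in the controls, with overlapping groups. Cxcr1, its relative, had 2.92 to 3.33 log2 with rilpivirine and 2.85 to 3.29 log2 in controls. Of 8 neutrophil markers only Mmp9 was above that level, and Ly6g, S100a8, S100a9, Retnlg, Mmp8, Camp and Ngp were not. Their mean over the 4 that passed the filter ran from 2.95 to 3.51 log2 with rilpivirine and 2.99 to 3.17 log2 in controls. The ligands Cxcl3 and Cxcl5, which also attract neutrophils, were under the filter, at means over all arrays of 1.70 and 2.54 log2.

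**Figure D3:**
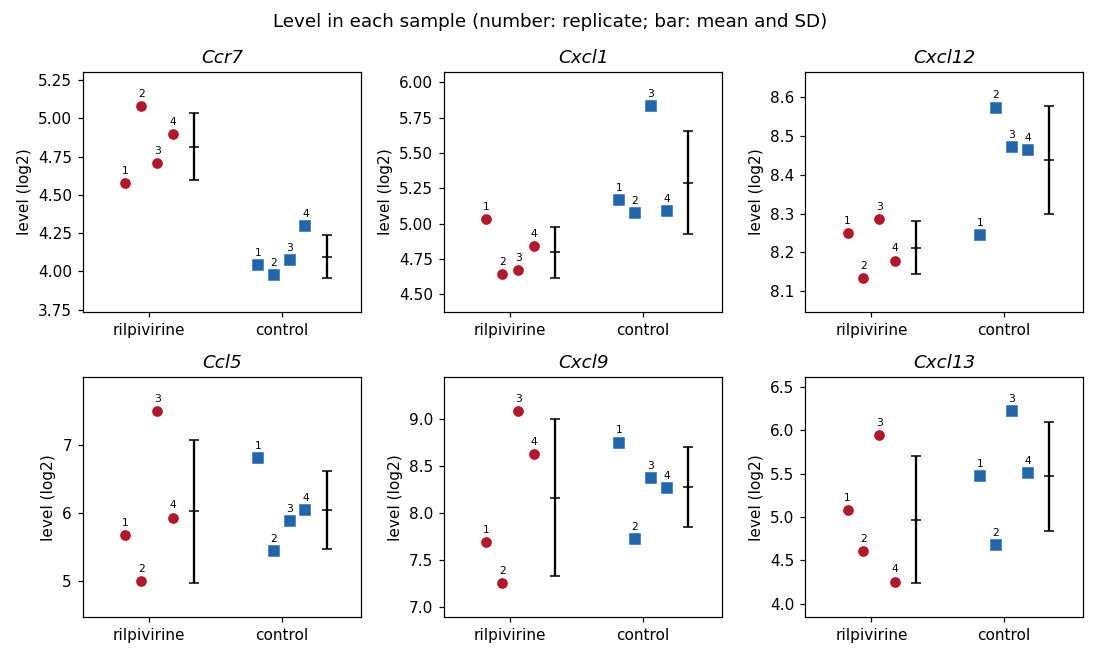
Level (log2) of 6 chemokine genes in each sample, with rilpivirine left and control right; numbers are replicates, and bars show mean and SD (n = 4 each). Ccr7 and Cxcl1 separate the groups, and in the other genes the groups overlap. In Ccl5, Cxcl9 and Cxcl13 the samples of a group spread over more than the distance between the group means. The control samples of Cxcl1 and Cxcl12 do so too.

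Several ligands varied more within a group than between the groups. Ccl5, which attracts T cells and monocytes and is stored by cytotoxic lymphocytes, measured 5.68, 5.0, 7.49 and 5.93 log2 in rilpivirine replicates 1 to 4, against 6.81, 5.45, 5.88 and 6.04 log2 in control replicates 1 to 4. Rilpivirine replicate 3 and control replicate 1 were the high samples, and rilpivirine replicate 2 was the lowest. Its SD within groups was larger than that of 99.7% of all genes tested. Ccl3, a ligand of CCR1 released by activated macrophages and lymphocytes, measured 3.94, 3.15, 5.05 and 4.05 log2 in the rilpivirine samples, against 4.94, 3.66, 3.82 and 3.66 log2 in the controls. The same pair of samples, 1 of each group, was high, and the difference was 0.03 ± 0.38 (SE).

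Ccl4, the close relative of Ccl3, measured 3.83, 4.04, 4.60 and 4.31 log2 in the rilpivirine samples, against 4.70, 4.20, 4.35 and 4.26 log2 in the controls. Again rilpivirine replicate 3 and control replicate 1 were highest, within a narrower range. The SD within groups exceeded that of 99.4% of tested genes for Ccl3, 99.1% for Cxcl9 and 75.4% for Ccl4. In all, 6 of 35 members, Ccl3, Ccl5, Ccl9, Cxcl9, Cxcl10 and Cxcl13, lay above the 90th percentile of that spread.

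CXCR3 ligands, which interferon gamma induces and which recruit activated T cells, lie side by side in the genome. Cxcl9 measured 7.69, 7.25, 9.08 and 8.62 log2 in rilpivirine replicates 1 to 4, against 8.74, 7.72, 8.37 and 8.26 log2 in control replicates 1 to 4. Rilpivirine replicates 1 and 2 were low with control replicate 2, and rilpivirine replicate 3 was the highest. Cxcl10 measured 4.49, 4.53, 4.80 and 5.51 log2 in the rilpivirine samples, against 5.31, 5.42, 4.61 and 4.55 log2 in the controls, high in rilpivirine replicate 4 and in control replicates 1 and 2. For Cxcl11 the values were narrower, at 4.08 to 4.70 log2 with rilpivirine and 4.27 to 4.52 log2 in controls. Differences between the groups were -0.11 ± 0.36 (SE), -0.14 ± 0.26 (SE) and 0.06 ± 0.15 (SE) in that order of genes, each with overlapping groups. Their receptor Cxcr3 measured 3.92 to 4.28 log2 with rilpivirine and 3.86 to 4.05 log2 in controls, a difference of 0.08 ± 0.12 (SE).

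Lymphocyte markers were read beside these ligands. Gzma, a granule protease of cytotoxic cells picked out after its values were seen, had a value of 4.24 log2 in rilpivirine replicate 3, against 1.91 to 2.14 log2 in the other rilpivirine samples and 1.87 to 2.69 log2 in controls. Mean levels of 3 NK and ILC1 markers that passed the filter ran from 3.58 to 3.92 log2 with rilpivirine and 3.71 to 3.83 log2 in controls, and rilpivirine replicate 3 was the highest of the 8. It was also the highest for the T cell markers, at 3.89 log2. Control replicate 1, also high in Ccl5, had 3.57 log2 for the T cell markers and 3.83 log2 for the NK and ILC1 markers. Rilpivirine replicate 2, the lowest in Ccl5, had 3.79 log2 for both lists. Ncr1, Klrb1c, Gzma, Gzmb, Eomes and Klre1 were not above the silent-gene level in their mean over all arrays. The part of these cells in the spread of Ccl5 and Cxcl9 was not tested.

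**Figure D4:**
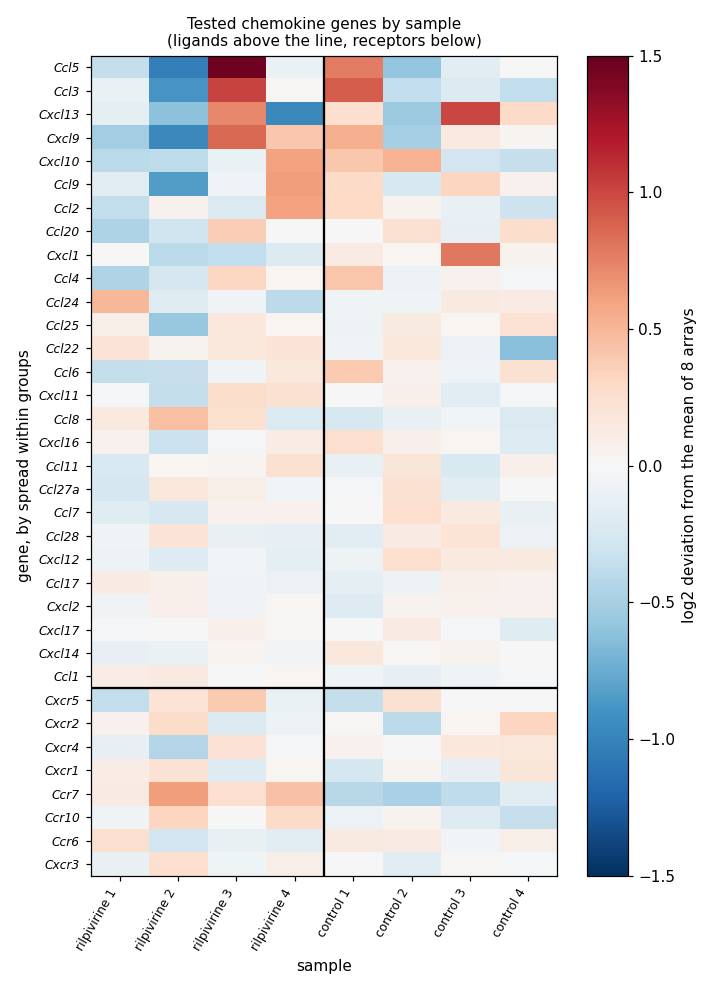
Deviation of each tested chemokine gene from its mean over 8 arrays (log2, colour), with samples in columns (rilpivirine left of the line) and genes in rows by their spread within groups, ligands above receptors. In the top rows single samples stand out, with Ccl5, Ccl3 and Cxcl9 red in rilpivirine replicate 3 and control replicate 1 and blue in rilpivirine replicate 2, and Ccr7 is red in the rilpivirine columns and blue in the control columns.

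By sample, rilpivirine replicate 2 had the lowest value in 10 of 27 tested ligands and rilpivirine replicate 1 in 8, of which Ccl11 was tied with control replicate 3, while rilpivirine replicate 3 had the lowest in 0. For receptors, rilpivirine replicate 2 had the highest value in 4 of 8. The mean level of the tested ligands was 4.73, 4.60, 5.02 and 4.89 log2 in rilpivirine replicates 1 to 4, against 4.98, 4.84, 4.91 and 4.82 log2 in control replicates 1 to 4. Both the lowest and the highest mean belonged to the rilpivirine group.

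The monocyte axis runs from CCL2, made by many stressed liver cells, to CCR2 on monocytes. Ccl2 measured 4.03, 4.47, 4.19 and 5.01 log2 in the rilpivirine samples, against 4.70, 4.45, 4.29 and 4.09 log2 in the controls. Rilpivirine replicate 4 was the highest and rilpivirine replicate 1 the lowest, and the groups overlapped, with a difference of 0.04 ± 0.21 (SE). Ccr2 did not enter the main test, since its mean over all arrays, 2.67 log2, lay just under the filter. It measured 2.44, 2.40, 2.29 and 2.81 log2 in the rilpivirine samples, against 3.12, 2.66, 2.63 and 3.03 log2 in the controls, with rilpivirine replicate 4 inside the range of the controls. In a fit without the filter its difference was -0.38 ± 0.16 log2 (SE), with an unadjusted p of 0.0343 and an adjusted p of 0.903 in limma. In that fit 4.91% of all genes had an unadjusted p under 0.05. The mean of Ccr2 lay under the 95th percentile of the silent genes.

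Markers of monocytes and macrophages are given beside Ccr2. All 7 measured markers of monocytes and lipid-associated macrophages had a lower mean with rilpivirine, beside 56.9% of all genes, and none passed adjustment over all genes. Their mean level ran from 4.34 to 5.16 log2 with rilpivirine and 4.83 to 5.30 log2 in controls. Ms4a7 and Trem2 had an unadjusted p under 0.05 in limma, beside 3.21% of all genes lower at that p. Ccl7, another CCR2 ligand, had 4.54 to 4.85 log2 with rilpivirine and 4.67 to 5.03 log2 in controls, a difference of -0.15 ± 0.13 (SE), and Ccl12 was under the filter. The part of these cells in the Ccr2 values was not tested.

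Ccl6 and Ccl9 encode macrophage chemokines that act through CCR1. Ccl6, a chemokine of myeloid cells, measured 5.37, 5.39, 5.66 and 5.89 log2 in the rilpivirine samples, against 6.12, 5.79, 5.66 and 5.96 log2 in the controls. Its 2 lowest samples were rilpivirine replicates 1 and 2, and its difference was -0.31 ± 0.15 (SE) with an unadjusted p of 0.0693 and an adjusted p of 0.890 in limma. Ccl9 measured 8.80, 8.12, 8.91 and 9.59 log2 in the rilpivirine samples, against 9.25, 8.72, 9.28 and 9.03 log2 in the controls. Here rilpivirine replicate 4 was the highest and rilpivirine replicate 2 the lowest sample, and the difference was -0.21 ± 0.26 (SE). Ccr1 itself had 2.15 to 2.64 log2 with rilpivirine and 2.10 to 2.62 log2 in controls, under the filter. Kupffer cell markers, of the resident macrophages, had a mean level of 6.95 to 7.39 log2 with rilpivirine and 7.13 to 7.56 log2 in controls, with 1 higher and 7 lower in mean, beside 43.1% of all genes above 0 and 56.9% below. C1qa and C1qb, subunits of complement C1q, were lower with no overlap between the groups, beside 1.73% of all genes, at differences of -0.33 ± 0.11 (SE) and -0.50 ± 0.14 (SE) and unadjusted p-values of 0.0141 and 0.00411 in limma. The other Kupffer cell markers had overlapping groups. Differences were -0.13 ± 0.18 (SE) for Clec4f, -0.04 ± 0.24 (SE) for Timd4, -0.01 ± 0.25 (SE) for Vsig4 and 0.04 ± 0.14 (SE) for Cd5l. For Marco and C1qc they were -0.47 ± 0.32 (SE) and -0.22 ± 0.14 (SE). The part of Kupffer cells in the Ccl6 and Ccl9 values was not tested.

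The CXCL12 axis keeps blood cells in their tissues. Cxcl12 measured 8.25, 8.13, 8.29 and 8.18 log2 in rilpivirine replicates 1 to 4, against 8.24, 8.57, 8.47 and 8.46 log2 in control replicates 1 to 4. Control replicate 1 lay within the range of the rilpivirine samples, and the other 3 controls lay above all of them. Its SD within groups was small, larger than that of only 7.8% of tested genes, and the difference was -0.23 ± 0.11 (SE) with an unadjusted p of 0.071 and an adjusted p of 0.890 in limma. Cxcr4, the receptor, measured 4.83, 4.51, 5.17 and 4.92 log2 in the rilpivirine samples, against 5.02, 4.95, 5.11 and 5.12 log2 in the controls, a difference of -0.19 ± 0.14 (SE) with overlapping groups. Ackr3, which scavenges CXCL12, had a difference of -0.07 ± 0.11 (SE). Markers of sinusoidal endothelium, one source of CXCL12, were higher in mean with rilpivirine in 7 of 7, beside 43.1% of all genes, at mean levels of 7.85 to 8.30 log2 with rilpivirine and 7.66 to 8.02 log2 in controls. Stab2, Oit3 and Kdr among them had an unadjusted p under 0.05 in limma, beside 2% of all genes higher at that p. Of 8 stellate cell and fibroblast markers, 3 were higher and 5 lower in mean with rilpivirine, beside 43.1% and 56.9% of all genes. Their mean level was 6.79 to 7.16 log2 with rilpivirine and 6.87 to 7.08 log2 in controls. The part of these cells in the Cxcl12 values was not tested.

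CXCL13 and its receptor CXCR5 organise B cells in lymphoid tissue. Cxcl13, which draws B cells into follicles, measured 5.08, 4.60, 5.95 and 4.25 log2 in rilpivirine replicates 1 to 4, against 5.48, 4.67, 6.22 and 5.51 log2 in control replicates 1 to 4. Control replicate 3 was the highest and rilpivirine replicate 4 the lowest, with rilpivirine replicate 3 within the range of the controls. The difference was -0.50 ± 0.37 (SE) with an interval of -1.32 to 0.32, and its SD within groups exceeded that of 99.2% of tested genes. Cxcr5, its receptor on B cells, measured 3.72 to 4.48 log2 with rilpivirine and 3.73 to 4.32 log2 in controls, a difference of 0.06 ± 0.18 (SE). Ms4a1, a further B cell marker, was under the filter. The mean of the 5 B cell markers that passed it ran from 3.99 to 4.57 log2 with rilpivirine and 4.15 to 4.33 log2 in controls. Among these, Pax5 and Ebf1 were not above the silent-gene level. Of the 5, 4 were higher and 1 lower in mean with rilpivirine, beside 43.1% of all genes above 0 and 56.9% below. Cd79a had a difference of 0.34 ± 0.14 (SE) with an unadjusted p of 0.035 and an adjusted p of 0.890 in limma. At that threshold 2% of all genes were higher. The part of these cells in the Cxcl13 and Cxcr5 values was not tested.

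Further pairs of ligand and receptor had overlapping groups in both partners. Cxcl16 had a difference of -0.08 ± 0.14 (SE), while its receptor Cxcr6, found on NKT and resident T cells, was under the filter at 2.34 to 2.91 log2 with rilpivirine and 1.83 to 2.50 log2 in controls. Ccl20, the ligand of CCR6 on T helper 17 cells and B cells, measured 3.26 to 4.08 log2 with rilpivirine and 3.60 to 3.98 log2 in controls, and Ccr6 measured 2.51 to 3.04 log2 with rilpivirine and 2.76 to 2.94 log2 in controls. Differences were -0.19 ± 0.18 (SE) for Ccl20 and -0.16 ± 0.13 (SE) for Ccr6. Ccl25, best known from thymus and small intestine, measured 3.89 to 4.62 log2 with rilpivirine and 4.39 to 4.69 log2 in controls, a difference of -0.15 ± 0.16 (SE), and its receptor Ccr9 was under the filter. Ccl24, an attractant of eosinophils through CCR3, measured 4.47 to 5.36 log2 with rilpivirine and 4.80 to 5.01 log2 in controls, and Cxcl14 measured 5.22 to 5.38 log2 with rilpivirine and 5.35 to 5.50 log2 in controls. Their differences were -0.07 ± 0.18 (SE) and -0.12 ± 0.10 (SE).

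The third member whose groups did not overlap was Ccl1, a T cell product that acts on CCR8. It measured 2.93, 2.96, 2.83 and 2.85 log2 in the rilpivirine samples, against 2.77, 2.70, 2.76 and 2.79 log2 in the controls. The groups were narrowly apart, the difference was 0.14 ± 0.10 (SE) with an unadjusted p of 0.199 in limma, and its mean over all arrays, 2.82 log2, was under the 95th percentile of the silent genes. Ccr10, a homing receptor for skin and mucosa, and Ccl8, a relative of Ccl2, were also under that percentile, with differences of 0.29 ± 0.14 (SE) and 0.31 ± 0.15 (SE) and unadjusted p-values of 0.0586 and 0.0594 in limma. The CCR4 ligand Ccl17, the eosinophil attractant Ccl11, the epithelial chemokines Ccl27a and Ccl28, and Cxcl17 had differences from -0.04 to 0.04 log2. Under the filter, 12 members, 5 ligands and 7 receptors, had means of 1.70 to 2.67 log2 over all arrays. Their differences ran from -0.38 to 0.35 log2, 8 higher and 4 lower, and did not enter the main test.

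Genes around the chemokine system were read as lists. Of 11 tested chemokines, decoy receptors and relatives outside the naming rule, 4 had a higher and 7 a lower mean with rilpivirine. Over all genes tested, 43.1% were above 0 and 56.9% below. The median of these 11 genes was -0.06 log2. Limma gave none of them at an unadjusted p under 0.05, beside 5.21% of all genes. The smallest p-values belonged to Ccrl2, which presents the attractant chemerin, at -0.29 ± 0.14 (SE), Xcl1, a T and NK cell chemokine, at 0.23 ± 0.12 (SE), and Cx3cr1. Cx3cr1, the fractalkine receptor of monocytes and resident macrophages, measured 4.92, 4.37, 4.36 and 5.16 log2 in the rilpivirine samples, against 5.07, 5.31, 4.93 and 4.79 log2 in the controls, with rilpivirine replicates 2 and 3 lowest and a difference of -0.32 ± 0.20 (SE). Of 24 signalling genes of the receptors (G proteins, arrestins, kinases and Rac regulators), 7 had a higher and 17 a lower mean, beside 43.1% and 56.9% of all genes. Their median was -0.05 log2, against -0.03 log2 over all genes tested. There was none at an unadjusted p under 0.05 in limma, beside 5.21% of all genes.

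Among 21 tested inducers of chemokines and their signal carriers, 10 had a higher and 11 a lower mean, beside 43.1% and 56.9% of all genes. Their median was -0.04 log2. The smallest p-values belonged to Il1r1, Irf7 and Tnfaip3. Il1r1, the receptor through which interleukin 1 induces Cxcl1, measured 5.82, 5.81, 7.28 and 6.74 log2 in the rilpivirine samples, against 8.13, 6.21, 7.82 and 7.38 log2 in the controls. Rilpivirine replicates 1 and 2 were lowest, with control replicate 2 the lowest of its group. The Il1r1 difference was -0.97 ± 0.42 (SE), with an unadjusted p of 0.0424 and an adjusted p of 0.890 in limma. Its SD within groups exceeded that of 99.6% of tested genes. Tnfaip3, a brake on NF-kB that NF-kB induces, measured 4.92, 4.95, 4.87 and 4.92 log2 in the rilpivirine samples, against 5.03, 5.03, 5.31 and 4.96 log2 in the controls. Its groups were narrowly without overlap, beside 1.73% of all genes lower without overlap. The difference was -0.17 ± 0.11 (SE) with an unadjusted p of 0.165 in limma. Irf7, an interferon-induced transcription factor, had a difference of -0.26 ± 0.14 (SE). Of the inducing cytokines, Il1b had a difference of 0.31 ± 0.26 (SE), Il1a of -0.06 ± 0.22 (SE) and Tnf of 0.17 ± 0.19 (SE). Each had overlapping groups, and Tnf was not above the silent-gene level. Ifng and Il6 were under the filter. Il1r1 was the 1 gene of these 3 lists at an unadjusted p under 0.05, beside 3.21% of all genes lower at that p. The part of these genes in the Cxcl1 values was not tested.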

How the data were processed

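The authors deposited log2 values for each probe set. Per the submitters' processing notes, RMA and limma were used, with no version or role stated. Per the labels' protocols, a whole-transcript Affymetrix kit was used on 300 ng of RNA per sample. RMA normalizes arrays together, so a change in total mRNA cannot be seen. Precision is limited by the 4 arrays in each group.

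Of 41345 probe sets, 23521 had 1 gene symbol in the platform annotation, 1814 had several and 16010 had none listed. Of several probe sets for a symbol, that with the highest mean over 8 arrays was kept, and genes under the 25th percentile of mean level were left out. All 47 members were found by Entrez identifier in RefSeq's gene table, and 33 in its table of promoter windows. Differences between rilpivirine and control were fitted over 16635 genes in limma 3.58.1 (R 4.3.3; lmFit, then eBayes) with no covariate. Tests were two-sided, adjusted p-values are Benjamini-Hochberg values, and 0.05 was the threshold. Scripts were tested on simulated data. Python 3.11.15 and matplotlib 3.10.9 made the figures and the promoter search.

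Every sample's value was given for members with an unadjusted p under 0.05 in limma or non-overlapping groups. Other members, among them those of a set of liver axes, were given by sample, range, difference or count. Members, lists and alternatives were chosen with earlier results of these data known. Alternatives were other moderation, array weights, centring, a further quantile normalization, other filters, the mean of probe sets, the replicate number as a block, Welch statistics, each sample left out, and other silent-gene bounds.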

Additional observations from a re-analysis of the deposited data

Results flagged for a closer look

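In 4 of 94 sets of 4 samples, each a member in either group, the highest or lowest value stood far from the other 3 by Dixon's criterion; chance alone marks about 1 in 20 sets. Ccr4 measured 2.60 log2 in rilpivirine replicate 2, against 2.01 to 2.11 log2 in the rest of its group, all under the filter. Ccl3 measured 4.94 log2 in control replicate 1, against 3.66 to 3.82 log2 in the other controls. Cxcl1 measured 5.83 log2 in control replicate 3, against 5.07 to 5.17 log2 in the other controls. Cxcl2 measured 3.83 log2 in control replicate 1, against 4.07 to 4.09 log2 in the other controls.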

How the results depend on the processing

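No gene and no member passed an adjusted p of 0.05 under any alternative run: other moderation, array weights, centring, quantile normalization, other filters, mean of probe sets, replicate block, Welch statistics and each sample left out. Ccr7 and Cxcl1 kept their direction throughout. Members at an unadjusted p under 0.05 numbered 2 in limma, 4 with trend and robust moderation (with Ccl8 and Ccr10 added), 3 without the filter and 3 with Welch statistics (Ccl1, Ccr7 and Cxcl12, without Cxcl1). The shares of all genes at that p were 5.21%, 5.08%, 4.91% and 3.93% in that order. Over the fits that leave out a sample the count was 2 to 4, and 4 without rilpivirine replicate 3, rilpivirine replicate 4 or control replicate 2. The share of all genes at that p ran from 3.47% to 9.15% over these fits. Without the samples just named it was 7.3%, 9.15% and 6.37% in that order. Members without overlap numbered 3 in the main comparison, 2 after a further quantile normalization and 2 with the filter at the 50th percentile. The shares of all genes without overlap were 3.04%, 3.29% and 3.22% in that order. With a sample left out, members without overlap numbered 3 to 5, beside 4.71% to 7.83% of all genes. They numbered 5 without rilpivirine replicate 3, beside 6.58% of all genes, and 5 without control replicate 2, beside 7.83%. With a sample left out, the median difference ran from -0.13 to 0.0058 log2 for ligands and from -0.0347 to 0.10 log2 for receptors, below 0 for receptors only without rilpivirine replicate 2.

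The replicate block gave 3 members at an unadjusted p under 0.05, adding Cxcl13, beside 6.44% of all genes. It gave an adjusted p of 0.393 in limma for Ccr7. Same-numbered samples had correlations of -0.25, 0.46, -0.09 and 0.066 in their deviations from the group means, so the numbers were not taken as pairs.

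Among 26 named members, 13 kept their direction in all fits. Ccl5 turned to 0.17 with array weights and 0.0363 after a further quantile normalization, Cxcl2 to -0.0302 with weights and -0.0109 after centring, and Cxcr2 to -0.0766 and -0.00347. With a sample left out, log2 differences ran over these ranges: Ccl2 -0.15 to 0.17, Ccl24 -0.24 to 0.0552, Ccl25 -0.23 to 0.0114, Ccl3 -0.31 to 0.33, Ccl5 -0.51 to 0.32, Ccl9 -0.46 to 0.0316, Cxcl10 -0.37 to 0.0074, Cxcl11 -0.0184 to 0.19, Cxcl16 -0.16 to 0.00966, Cxcl2 -0.0589 to 0.0273, Cxcl9 -0.42 to 0.19, Cxcr2 -0.12 to 0.12, Cxcr5 -0.0561 to 0.20. The cause was not tested. Members filtered out at the 50th percentile gave no value there. Against the highest silent gene, Vmn1r233 at 10.7 log2, 0 members lay above the bound, in place of 29, and against the vomeronasal receptors alone 29 did.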
